A study of Mus musculus with 26 samples.

Results

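The MYC network of mouse pancreatic islets was followed through 10 genes: Myc and Mycn, their partner Max, the antagonists Mxd1, Mxd4 and Mnt, and the growth targets Nme1, Odc1, Ncl and Npm1. They are 10 of the 18193 genes that the array annotation names. Each was read through 1 probe set, the brightest over all 26 arrays among those annotated to that gene alone, and all 10 passed the filter on dim probe sets that left 12580 genes for testing. The genes were chosen by signals measured on these same arrays: Myc for its high signal at 3 mM glucose and its lower signal by 4 h at 11 mM, Nme1 for its higher signal over the same hours. Comparisons against 3 mM and within the time course are therefore descriptions: they carry no p-value, and counts of genes past the threshold in them are given only to describe the arrays. The 8 tested comparisons are those that this choice did not use, and Myc itself is also only described between 5.5 and 11 mM.

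MYC and MYCN are transcription factors that bind DNA as dimers with MAX, mostly at the E-box CACGTG, and raise the transcription of genes for ribosome assembly, nucleotide and polyamine synthesis and cell growth. MXD and MNT proteins compete for MAX at the same sites and recruit repressors through SIN3. MYC RNA and protein both turn over quickly, and in beta cells forced MYC expression is known to drive proliferation and a loss of differentiated identity.

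Islets came from wild-type male C57/Bl6J mice, young ones of 5 weeks and old ones of 56 weeks. They were either taken fresh or allowed to recover for 1 day at 11 mM glucose and then kept for 2 days at 3, 5.5 or 11 mM, and for young islets also at 16 mM. In a separate time course, young islets also recovered for 1 day at 11 mM and then spent a night at 3 mM. They were taken at time 0 and after 1 h and 4 h at 11 mM, and no group stayed at 3 mM for the same hours. There were 12 groups, with 4 arrays for young islets at 11 mM and 2 for every other group. Replicates are labelled as biological, but pooling of mice is not stated, and a p-value here covers only the spread among these samples. An islet is a mixture of cell types, so fewer cells of a type and less RNA per cell cannot be told apart in these values.

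Signals are in the arbitrary units of the deposited table, and log2 differences are of log2(signal + 16), which understates the change of a dim gene such as Myc. The signal of a probe set cannot be set against that of another. The median signal over all probe sets was 28 to 42 on an array. Genes were tested with limma over all 12580 genes, and a gene is said to rise or fall where its Benjamini-Hochberg adjusted p was under 0.05. SE is the moderated standard error of a log2 difference.

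The arrays formed 2 sets, unnamed in the labels, by how evenly both ends of the Gapdh control RNA were read. Its 5′ signal over its 3′ signal was 1.03 to 1.48 on the 12 arrays of set A, which held every old sample, the fresh young islets, and the young 11 mM samples numbered 3 and 4. On the 14 arrays of set B this ratio was 0.10 to 0.169 in the other cultured young islets and 0.194 to 0.277 in the time course. Young islets at 11 mM lie in both sets and show how the sets differ for each member. Set B minus set A was 0.10 on the log2 scale for Myc, -0.02 for Ncl and -0.05 for Npm1, but 0.77 for Mxd1, -0.70 for Max, 0.57 for Nme1, 0.49 for Odc1 and 0.47 for Mnt. The set is a term of the model, so each test compares arrays of 1 set, and levels across the sets are read below only for Myc, Ncl and Npm1. Beta-cell Ins2 was 2230 to 5224 on all arrays. The acinar enzyme Prss2 was 1478 to 6541 in fresh islets against 5 to 1041 in cultured ones, duct Krt19 was 1 to 37, and endothelial Pecam1 was 40 to 90 in fresh and 2 to 26 in cultured islets.

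The promoters of several members carry the sequence that the network itself reads. RefSeq entries on GRCm38.p6 were matched for 8 of the 10 genes, from 250 bases before to 50 after the start of transcription; Myc and Npm1 are named only. The canonical E-box CACGTG, which reads the same on both strands, occurred in 4 of the 8 genes (50%), beside 8.09% of the 27025 genes with an entry. The 4 are the partner Max, the antagonists Mxd4 and Mnt, and the target Nme1, shown because they hold the site of MYC-MAX dimers close to their own start. The window of Max is chr12:76962199-76962498 (minus strand), with the motif at -3 from the start. That of Mxd4 is chr5:34187661-34187960 (minus strand, motif at -219), and that of Mnt is chr11:74830674-74830973 (plus strand, motif at -123). That of Nme1 is chr11:93968223-93968522 (minus strand, motif at -18). They are printed 5′ to 3′ on the strand of the gene, with the E-box in capitals.
Max: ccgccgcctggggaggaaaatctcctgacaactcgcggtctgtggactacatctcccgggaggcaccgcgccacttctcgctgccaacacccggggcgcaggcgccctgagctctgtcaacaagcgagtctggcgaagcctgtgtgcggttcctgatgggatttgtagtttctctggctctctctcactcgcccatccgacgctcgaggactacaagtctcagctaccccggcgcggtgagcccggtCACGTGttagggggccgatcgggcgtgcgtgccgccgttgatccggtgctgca
Mxd4: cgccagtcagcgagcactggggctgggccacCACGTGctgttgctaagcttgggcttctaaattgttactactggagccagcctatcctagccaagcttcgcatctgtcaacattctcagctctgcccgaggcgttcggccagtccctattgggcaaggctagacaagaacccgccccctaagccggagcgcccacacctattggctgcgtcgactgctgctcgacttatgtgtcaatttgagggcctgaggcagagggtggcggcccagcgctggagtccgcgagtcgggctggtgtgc
Mnt: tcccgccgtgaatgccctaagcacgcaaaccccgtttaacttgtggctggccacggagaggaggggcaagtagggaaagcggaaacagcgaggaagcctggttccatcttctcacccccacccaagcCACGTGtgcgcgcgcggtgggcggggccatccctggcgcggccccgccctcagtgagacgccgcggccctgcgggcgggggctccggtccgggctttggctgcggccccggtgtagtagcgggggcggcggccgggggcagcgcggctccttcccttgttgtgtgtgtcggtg
Nme1: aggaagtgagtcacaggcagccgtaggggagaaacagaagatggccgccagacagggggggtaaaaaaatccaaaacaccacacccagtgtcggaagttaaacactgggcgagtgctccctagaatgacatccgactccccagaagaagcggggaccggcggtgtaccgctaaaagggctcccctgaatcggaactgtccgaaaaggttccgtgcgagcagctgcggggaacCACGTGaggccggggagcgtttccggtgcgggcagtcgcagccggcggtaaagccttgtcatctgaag
A second annotated start of Nme1 also held the E-box, at -29. Mycn, Mxd1, Odc1 and Ncl did not hold these letters in their windows. In the other gene lists read below, cell type markers aside, the share of genes with the E-box also varied. It ran from 0% (genes that MYC represses) to 50% (translation and growth), with 33.3% for immediate-early genes. The variant CACGCG, searched on both strands, occurred at 2 places in the window of Odc1 and in 10.5% of all genes. A match is a run of letters and not a measured binding site. In the values that follow, Mxd4 and Nme1 were higher at 4 h of the time course, Mnt was lower, and Max passed the threshold in no comparison.

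Myc had its highest signals wherever islets had been at 3 mM glucose, and was near the median of the array after 2 days at 11 or 16 mM. At 3 mM its signals were 269 and 225 in young islets and 206 and 221 in old islets, and at time 0 of the time course they were 173 and 283. At 5.5 mM they were 159 and 99 in young and 147 and 110 in old islets. The 6 arrays at 3 mM all lay above the 4 at 5.5 mM, and this order also held within each array set. At 11 mM they were 39, 32, 34 and 30 in young and 33 and 32 in old islets, and at 16 mM they were 20 and 32. No array after 2 days at 11 or 16 mM came near those at 5.5 mM.

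**Figure D1:**
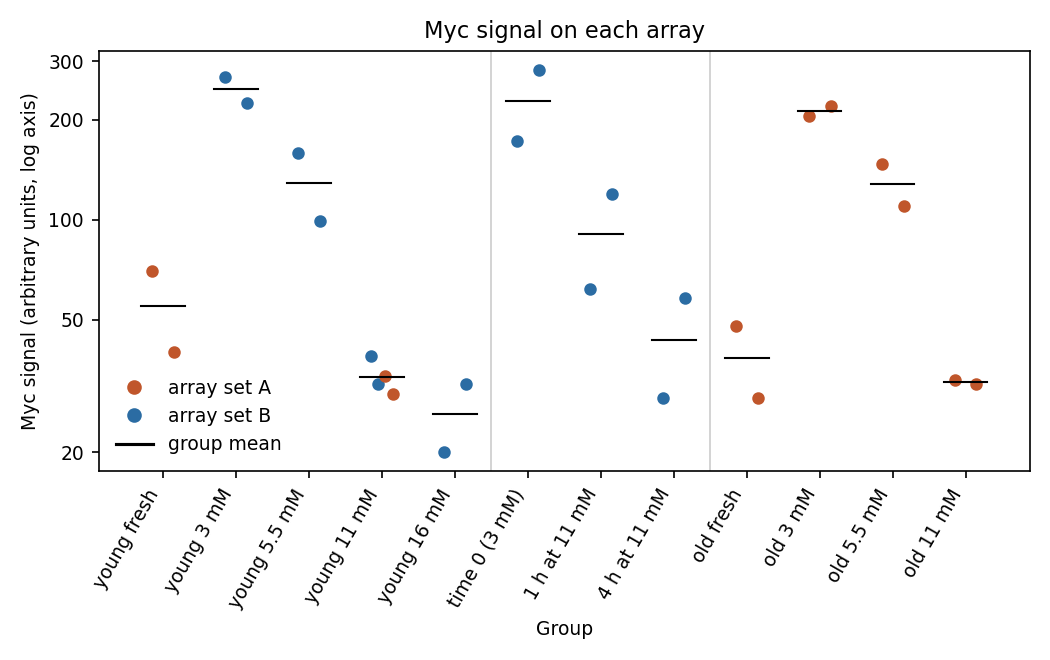
Signal of Myc (arbitrary units) on each of the 26 arrays by group, with group means as bars and the array set by colour. The 6 arrays at 3 mM lie between 173 and 283, the 4 arrays at 5.5 mM between 99 and 159, and the 8 arrays kept for 2 days at 11 or 16 mM between 20 and 39.

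From 3 mM, the mean Myc signal was 6.96 times lower in young islets at 11 mM (the 2 arrays of the same set; log2 difference -2.35, SE 0.30), 9.5 times lower at 16 mM (-2.66) and 6.57 times lower in old islets at 11 mM (-2.24). Between 3 and 5.5 mM the difference was -0.89 in young and -0.68 in old islets (SE 0.30 each). On the log2 scale this was smaller at both ages than between 5.5 and 11 mM, but the 2 steps were not tested against each other. The difference between 5.5 and 11 mM was -1.47 (SE 0.30) in young and -1.56 (SE 0.30) in old islets. It continues the pattern for which Myc was chosen, so no p is given. The 2 ages differed in this step by -0.10 (SE 0.43), less than its error. From 11 to 16 mM the difference was -0.31 (adjusted p = 0.866), with overlapping arrays.

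Lower Myc was present within 1 h of the change to 11 mM. Its signals over the time course were 173 and 283 at time 0, 62 and 120 after 1 h and 29 and 58 after 4 h. The 3 times did not overlap. The mean was 2.51 times lower at 1 h (log2 difference -1.21) and 5.24 times lower at 4 h (-2.04), where 1 array (29) lay just below and the other (58) above the 30 to 39 of islets kept at 11 mM for 2 days. Replicate 2 was above replicate 1 at each time.

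Fresh islets, which had seen no culture, carried little Myc RNA. Its signals were 70 and 40 in young and 48 and 29 in old islets, which overlap with each other and with the 4 h arrays. The test between 11 mM and fresh islets was not passed in young (-0.53, adjusted p = 0.439) or old islets (-0.15, adjusted p = 0.859). A difference between the ages was not detectable, at -0.37 fresh (adjusted p = 0.482) and 0.02 at 11 mM (adjusted p = 0.980, 95% interval -0.61 to 0.65). In order of group means, the 3 groups at 3 mM came first. Among them time 0 overlapped both others, while young islets at 3 mM (225 and 269) lay just above old ones (206 and 221) of the other array set. The 5.5 mM groups of both ages followed and overlapped each other and the 1 h arrays. Fresh islets, 4 h and the 11 and 16 mM groups formed a lower range in which each group overlapped the next.

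Immediate-early transcription factors, a class to which Myc is often assigned, were high in fresh islets, where Myc was low. Fos, a subunit of AP-1, was 4425 to 7199 on the 4 fresh arrays and averaged 33.5 in young (set A) and 62.5 in old islets at 11 mM. Egr1, a zinc-finger factor induced by growth signals, was 2082 to 5958 when fresh and averaged 82.5 and 75 at 11 mM. From fresh to 11 mM Fos fell by 6.52 in young and by 6.30 in old islets (log2; adjusted p = 5.10e-11 and 9.80e-11), and Egr1 fell by 4.52 and by 5.78 (adjusted p = 1.84e-10 and 4.91e-12). Of the 14 tested genes of that list, 6 fell and 1 rose in young and 8 fell in old islets, beside 2.51% and 2.77% of all genes that fell. In the time course Fos averaged 111.5 at time 0 and 257 at 4 h, while the stress factors Atf3 (149.5 and 52) and Maff (230.5 and 97.5) were lower at 4 h, as was Myc.

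Mycn, the paralogue best known from embryonic and neural tissue, was dim throughout, with signals of 14 to 78 that straddle the array median. In young islets of set B it was 53 and 48 at 3 mM, 36 and 45 at 5.5 mM, 63 and 46 at 11 mM, and 14 and 27 at 16 mM. The 16 mM pair and the 4 h pair (22 and 26) were the lowest of that set. Mycn passed in none of the 8 tested comparisons: the step from 11 to 16 mM was -0.96 (SE 0.34, adjusted p = 0.381), and its other probe sets gave -0.73 and 0.25 there.

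Max, the shared partner, showed no order by glucose in young islets. Its signals in set B were 72 and 54 at 3 mM, 76 and 56 at 5.5 mM, 51 and 63 at 11 mM and 65 and 71 at 16 mM, where the first 3 groups overlapped and the 16 mM pair lay within the range at 3 and 5.5 mM and just above 11 mM. In old islets they were 276 and 228 at 3 mM, 208 and 209 at 5.5 mM and 192 and 145 at 11 mM. The old groups descended without overlap, with a difference of -0.54 between 3 and 11 mM. At 11 mM on the same array set, old islets (192 and 145) lay above young ones (105 and 99) by 0.63 (SE 0.23), which missed the threshold (adjusted p = 0.0667).

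Mxd1, a MAX-binding antagonist that takes over from MYC as many cells leave the cycle, ran opposite to Myc in young islets. Its signals in set B were 128 and 122 at 3 mM, 174 and 197 at 5.5 mM, 243 and 251 at 11 mM and 255 and 265 at 16 mM. These 4 groups did not overlap. Over the hours at 11 mM they were 123 and 130 at time 0, 126 and 141 at 1 h and 220 and 178 at 4 h, so times 0 and 1 h overlapped and 4 h stood above both. The mean was 1.98 times higher at 11 mM than at 3 mM (log2 difference 0.90) and 1.57 times higher at 4 h than at time 0 (0.59). The other probe sets of Mxd1 were dim and did not show the 4 h rise. They read 17 to 20 at time 0 against 12 to 20 at 4 h, and 3 against 2 to 5. From 5.5 to 11 mM the difference was 0.39 (adjusted p = 0.180).

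In old islets Mxd1 was 70 and 64 at 3 mM, 88 and 77 at 5.5 mM and 74 and 105 at 11 mM, a difference of 0.33 from 3 to 11 mM. At 11 mM it was lower in old islets (74 and 105) than in young ones of the same array set (130 and 148), by 0.57 (log2 difference -0.57, SE 0.15, adjusted p = 0.0135). It was the 1 member of 10 past the threshold in a comparison where 15.6% of all genes passed (5.59% of all genes were lower). Without replicate 1 of old islets at 11 mM the difference was -0.35 (adjusted p = 0.166), without replicate 4 of young islets -0.48 (adjusted p = 0.116), with the mean of its probe sets -0.11 (adjusted p = 0.654) and with a replicate block -0.51 (adjusted p = 0.101). Another probe set of Mxd1 pointed the other way (0.36, adjusted p = 0.388), and between 3 and 11 mM in young islets the other probe sets gave 0.18 and 0.11.

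Mxd4, another antagonist, was higher at 4 h of the time course than at time 0, and higher at 11 than at 3 mM at both ages. Its signals were 232 and 187 at time 0, 220 and 194 at 1 h and 381 and 323 at 4 h. The first hour overlapped with time 0, and both 4 h arrays stood above all earlier ones (1.68 times, log2 difference 0.71). In old islets it was 266 and 263 at 3 mM, 250 and 268 at 5.5 mM and 454 and 344 at 11 mM, a step of 0.58 from 5.5 to 11 mM that missed the threshold (SE 0.17, adjusted p = 0.0531). In young islets of set B it was 352 and 342 at 3 mM, 358 and 357 at 5.5 mM, 458 and 363 at 11 mM and 504 and 399 at 16 mM. The signals at time 0 and 1 h were the lowest of that set. Those at 4 h overlapped with islets kept for 2 days at 3 or 5.5 mM. All 4 probe sets of Mxd4 were higher at 4 h than at time 0 (0.25 to 0.71) and higher at 11 than at 3 mM in old (0.26 to 0.62) and young islets (0.22 to 0.67).

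Mnt, the antagonist expressed in resting and cycling cells alike, was lower in young islets where Myc was lower. Its signals in set B were 466 and 429 at 3 mM, 378 and 372 at 5.5 mM, 309 and 207 at 11 mM and 334 and 180 at 16 mM. Over the time course they were 516 and 380 at time 0, 374 and 386 at 1 h and 301 and 263 at 4 h. The differences were -0.78 from 3 to 11 mM and -0.63 at 4 h. In old islets it was -0.28 from 3 to 11 mM, with signals of 351 and 283 against 266 and 248. Mnt passed in none of the 8 tested comparisons (11 against 5.5 mM in young islets, -0.54, adjusted p = 0.222). Its second probe set was 0.19 higher at 11 than at 3 mM in young islets. That probe set never exceeded the array median, so it does not show a direction for Mnt.

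**Figure D2:**
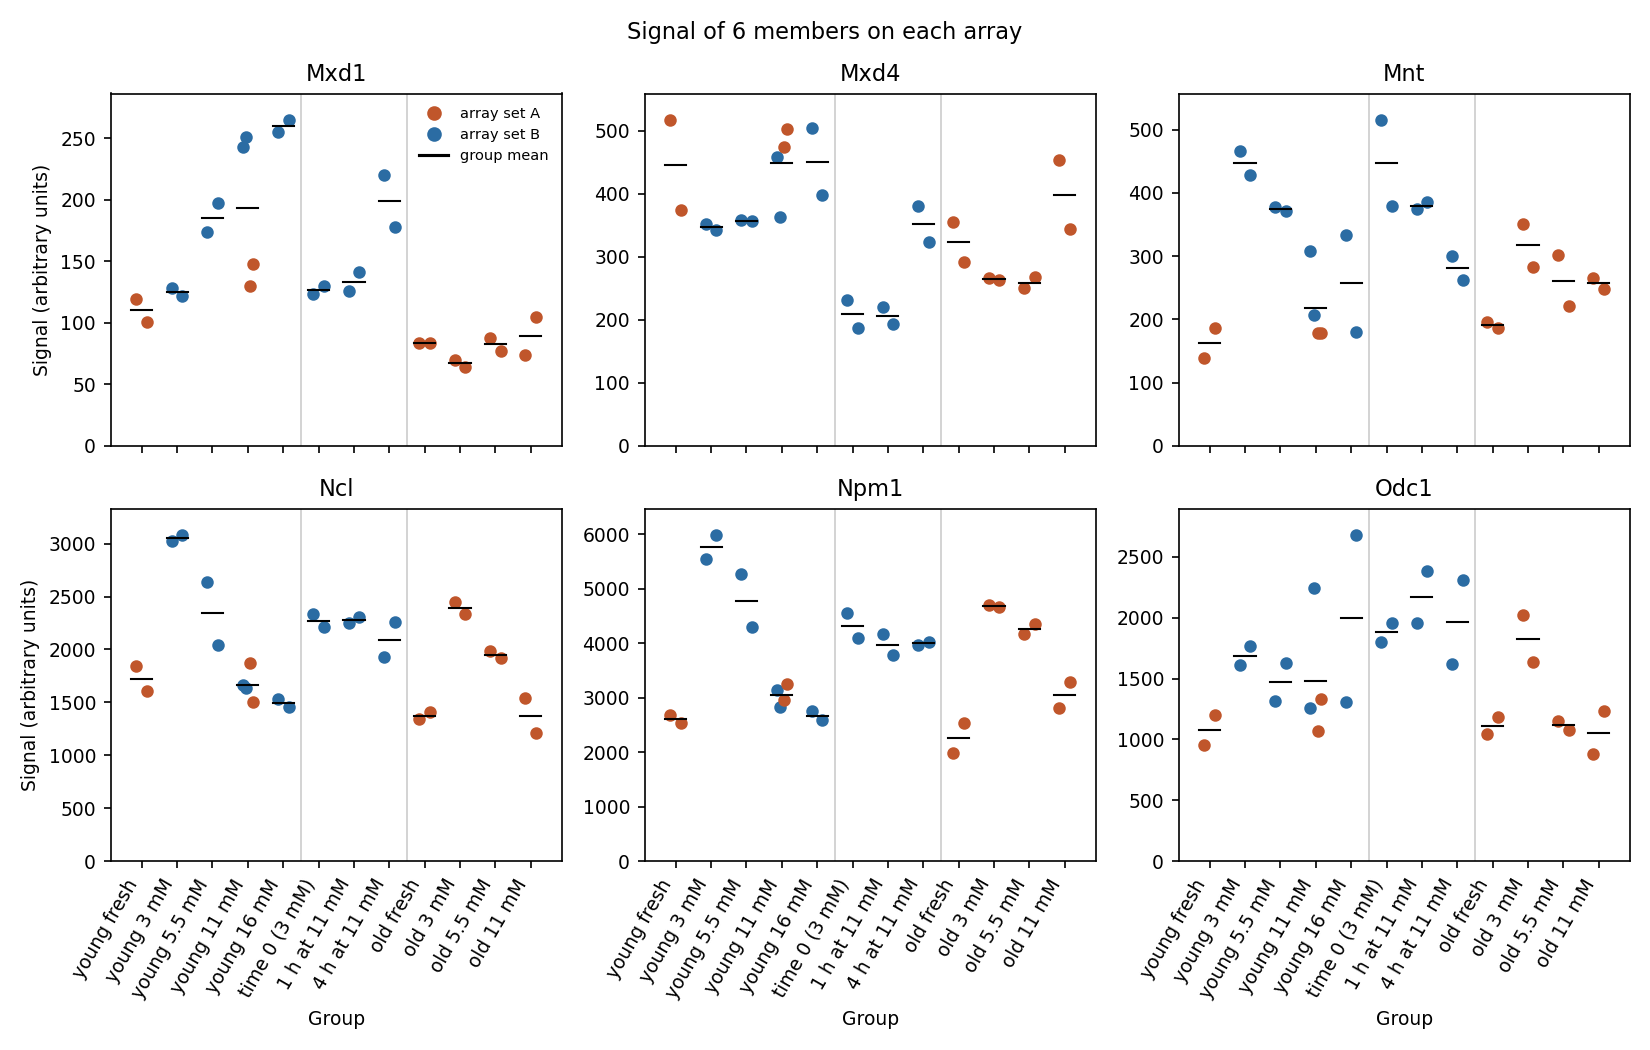
Signals (arbitrary units) of 3 antagonists and 3 targets on each array by group, with group means as bars (over both sets for young islets at 11 mM) and the array set by colour. In young islets of set B, Mxd1 lies between 122 at 3 mM and 265 at 16 mM, while Ncl lies between 3083 and 1455 and Npm1 between 5994 and 2599 over the same steps.

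Ncl encodes nucleolin and Npm1 nucleophosmin, abundant nucleolar proteins of ribosome assembly whose genes are classical MYC targets. On the probe sets used, both were lower at higher glucose at both ages. Another probe set of Ncl was flat in old islets, with means of 176.5 at 3 mM, 186.5 at 5.5 mM and 176 at 11 mM. The remaining probe sets of Ncl had lower means at 11 than at 3 mM there. Ncl signals in young islets were 3024 and 3083 at 3 mM, 2635 and 2045 at 5.5 mM, 1668, 1632, 1872 and 1502 at 11 mM and 1528 and 1455 at 16 mM. In old islets they were 2449 and 2333 at 3 mM, 1984 and 1917 at 5.5 mM, and 1540 and 1209 at 11 mM. The order followed the glucose concentration, with no overlap between 3, 5.5 and 11 mM at either age.

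Npm1 signals in young islets were 5555 and 5994 at 3 mM, 5270 and 4298 at 5.5 mM, 3152, 2831, 2953 and 3262 at 11 mM and 2749 and 2599 at 16 mM. In old islets they were 4698 and 4671 at 3 mM, 4165 and 4352 at 5.5 mM, and 2808 and 3294 at 11 mM. The groups again did not overlap. The mean at 11 mM was 1.93 times lower than at 3 mM in young islets (log2 difference -0.95) and 1.54 times lower in old islets (-0.62), and for Ncl it was 1.85 times (-0.88) and 1.74 times lower (-0.80).

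Between 5.5 and 11 mM, Ncl fell by 0.49 in young islets (SE 0.13, adjusted p = 0.0434) and by 0.51 in old islets (SE 0.13, adjusted p = 0.0292). Npm1 fell by 0.67 in young (SE 0.12, adjusted p = 0.00293) and by 0.48 in old islets (SE 0.12, adjusted p = 0.0252). Leaving Myc aside, no other member passed at either age, where 3.24% of all genes passed in young and 4.36% in old islets. The second probe set of Npm1 fell by 1.23 in young islets and missed the threshold in old islets (-0.49, adjusted p = 0.181). Of the other 4 probe sets of Ncl, none passed in young islets (-0.67 to -0.06, adjusted p = 0.168 to 0.963) and 1 in old islets (-0.96, adjusted p = 0.0325; the others -0.53 to -0.07). A difference between the ages in this step was not detectable for any of the 10 (smallest unadjusted p = 0.107, for Mxd4). None of the 12580 genes passed that test in limma, with 414 at an unadjusted p under 0.05.

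These calls rest on few arrays. In young islets neither gene passed without replicate 1 at 5.5 mM (Ncl -0.31, adjusted p = 0.550; Npm1 -0.52, adjusted p = 0.113) or without replicate 2 at 11 mM (Ncl -0.47, adjusted p = 0.251; Npm1 -0.59, adjusted p = 0.0685), and Ncl also missed without replicate 1 at 11 mM (adjusted p = 0.108), without the filter (adjusted p = 0.0633), with the mean of its probe sets (adjusted p = 0.171) and without an intensity trend (adjusted p = 0.0865). In old islets Ncl missed without either 5.5 mM array (adjusted p = 0.214 and 0.106) or replicate 2 at 11 mM (adjusted p = 0.280), Npm1 without either 5.5 mM array (adjusted p = 0.139 and 0.148), replicate 1 at 11 mM (adjusted p = 0.185) or with the mean of its probe sets (adjusted p = 0.0613), and both without the array set (adjusted p = 0.0930 and 0.0802) or the trend (adjusted p = 0.0608 and 0.0563). With the replicate number as a block, both passed in young islets, where 940 genes passed in place of 408.

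After 1 h or 4 h neither gene was lower by an amount near that of the 2-day cultures. Ncl was 2334 and 2212 at time 0, 2249 and 2304 at 1 h and 1926 and 2257 at 4 h. Npm1 was 4552 and 4098 at time 0, 4167 and 3780 at 1 h and 3975 and 4027 at 4 h. The values mostly overlap, with differences at 4 h of -0.12 for Ncl and -0.11 for Npm1, when that of Myc was -2.04. The second probe set of Npm1 descended without overlap, from 1751 to 1996 at time 0 to 1715 to 1722 at 1 h and 1485 to 1592 at 4 h. The other probe sets of Ncl overlapped between time 0 and 4 h or were higher at 4 h. Across arrays, Ncl and Npm1 went together (r = 0.967 over the 14 arrays of set B and 0.732 over the 12 of set A). Each also went with Myc (Ncl 0.852 and 0.858, Npm1 0.817 and 0.780), as a description of arrays that share their groups.

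Fresh islets had Ncl and Npm1 near the low end. Ncl was 1841 and 1609 in young and 1339 and 1413 in old fresh islets, and Npm1 was 2685 and 2533 in young and 1985 and 2531 in old ones. In old islets Npm1 rose from fresh to 11 mM (2808 and 3294) by 0.44 (SE 0.12, adjusted p = 0.0351), the 1 member of 10 in a comparison where 5.56% of all genes passed (2.79% rose). The difference was 0.32 without replicate 2 at 11 mM (adjusted p = 0.312), 0.26 without replicate 1 of the fresh islets (adjusted p = 0.438) and 0.34 after quantile normalization (adjusted p = 0.128), and it missed the threshold without the filter, the array set or the trend (adjusted p = 0.0602, 0.0799 and 0.0703). In young islets it was 0.25 (adjusted p = 0.328).

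Odc1 encodes ornithine decarboxylase, the first enzyme of polyamine synthesis and a textbook MYC target. In old islets it was 2019 and 1634 at 3 mM, 1154 and 1075 at 5.5 mM, 881 and 1231 at 11 mM and 1042 and 1184 fresh. The 3 mM pair stood apart from all other old arrays (difference of -0.79 between 3 and 11 mM), and all 3 probe sets of Odc1 were lower at 11 mM (-0.69 to -1.21). In young islets of set B the signals were 1611 and 1766 at 3 mM, 1316 and 1628 at 5.5 mM, 1260 and 2241 at 11 mM and 1308 and 2681 at 16 mM. At 11 and 16 mM the replicates there differed more than the group means. The other probe sets of Odc1 were higher at 3 than at 5.5 mM without overlap (2021 to 2089 against 1550 to 1660, and 255 to 263 against 171 to 199). At 16 mM both overlapped with 3 mM. At the 3 times Odc1 was 1804 and 1958 at time 0, 1959 and 2386 at 1 h and 1623 and 2309 at 4 h, and it passed in none of the 8 tested comparisons.

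Nme1 encodes a nucleoside diphosphate kinase, which makes nucleoside triphosphates, and was chosen for its higher signal in the time course. Its probe set read 1211 and 808 at time 0, 3048 and 1648 at 1 h and 2949 and 3263 at 4 h. The means were 2.33 and 3.08 times that of time 0 (log2 differences 1.17 and 1.63), opposite to Myc. The signals at time 0 were the lowest of set B: young islets kept at 3 mM for 2 days read 2070 and 3109. After 2 days the difference between 3 and 11 mM was 0.44 in young and -0.11 in old islets.

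The second probe set of Nme1 followed a flatter course. It read 1295 and 1302 at time 0, 1198 and 1365 at 1 h and 1542 and 1535 at 4 h, a difference of -0.02 at 1 h and 0.24 at 4 h. The probe set used above, like the one used for Odc1, is of the type marked x, whose probes may also match related sequences. Nme2, the neighbouring paralogue, differed by -0.04 at 1 h and 0.07 at 4 h. The 2 probe sets of Nme1 thus gave different values for the same gene. Neither passed in any of the 8 tested comparisons.

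**Figure D3:**
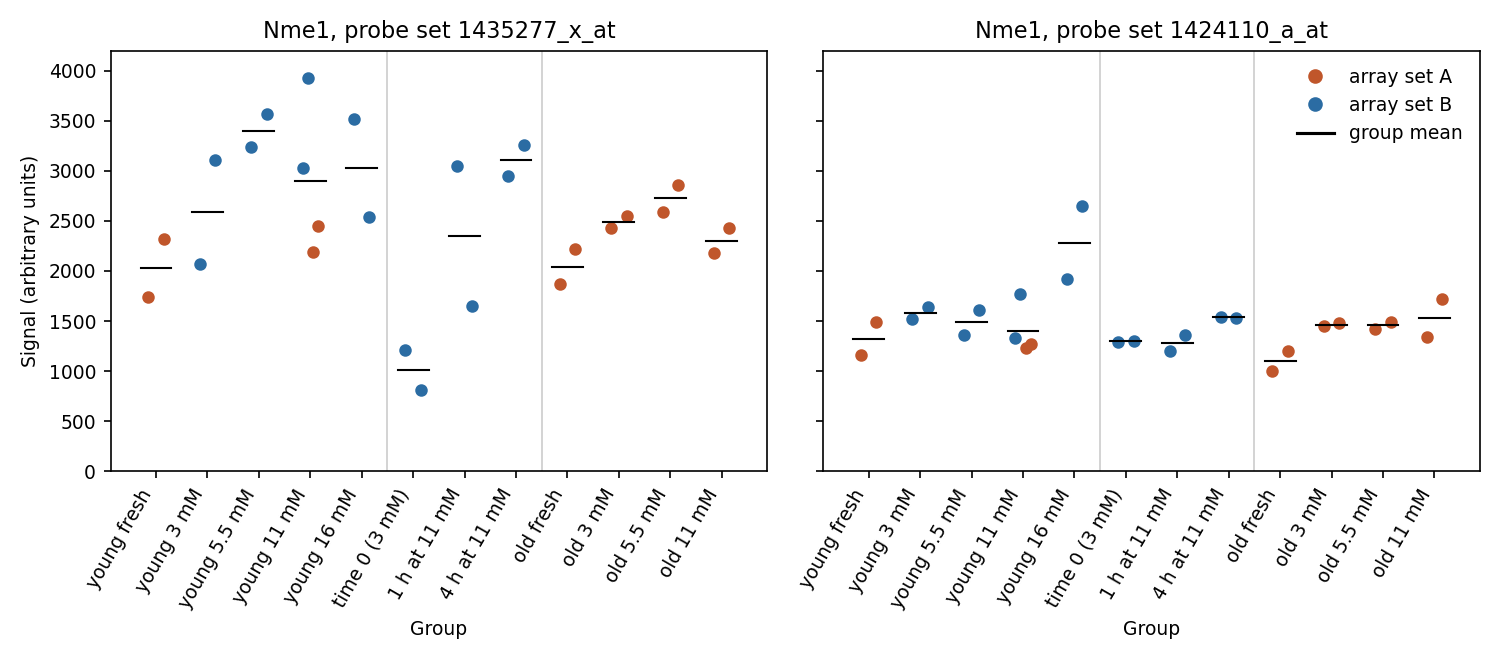
Signals (arbitrary units) of the 2 probe sets of Nme1 on each array by group, with group means as bars and the array set by colour. In the time course the probe set used lies at 808 and 1211 at time 0 and at 2949 and 3263 at 4 h, while the other lies at 1295 and 1302 and at 1542 and 1535.

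Counted over the 10 members, 1 was higher (Mxd1) and 4 were lower (Myc, Mnt, Ncl and Npm1) past the threshold at 11 against 3 mM in young islets, where 26.4% of all genes passed. The same 5 passed at 16 against 3 mM, where 28.7% did. In old islets at 11 against 3 mM 1 was higher (Mxd4) and 4 were lower (Myc, Odc1, Ncl and Npm1), with 24.6% of all genes. At 5.5 against 3 mM the 1 member was Mxd1 in young islets (6.06% of all genes; 2.97% higher and 3.08% lower), and there was none in old islets in limma (4.69%; 2.39% higher and 2.3% lower), with 3 members at an unadjusted p under 0.05. At 1 h it was Nme1 alone (0.262% of all genes; 0.183% higher and 0.0795% lower). At 4 h Nme1, Mxd1 and Mxd4 were higher and Myc lower (11.4%; 5.72% higher and 5.64% lower), and from 1 h to 4 h the 1 was Mxd4 (3.09%; 1.27% higher and 1.82% lower). The choice of the members used these contrasts, so nothing is read from the counts. With the replicate number as a block, 1466 genes in place of 762 passed at 5.5 against 3 mM in young islets, 68 in place of 33 at 1 h and 896 in place of 389 from 1 h to 4 h. Myc, which was chosen on these contrasts, passed in each of the 3, Ncl also in the first and Mxd1 also in the last. Nothing is read from the blocked counts either. The block added Mnt (lower) at 4 h, and Mycn (lower) and Mxd4 (higher) at 16 against 3 mM in young islets.

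The comparisons that the choice did not use gave few calls. From 11 to 16 mM in young islets 0 of 10 members passed in limma, with 1 at an unadjusted p under 0.05, and 0.00795% of all genes passed, 1 gene, or 44 genes with the replicate number as a block. Between old and young fresh islets 0 of 10 passed in limma, with 3 at an unadjusted p under 0.05, where 9.44% of all genes did (5.75% higher and 3.7% lower). Between young islets at 11 mM and fresh ones 0 passed in limma, with 0 unadjusted, where 4.19% of all genes did. In the test of whether the change from fresh to 11 mM differed between the ages 0 passed in limma, with 0 unadjusted (0.0238% of all genes; 0.00795% higher and 0.0159% lower).

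**Figure D4:**
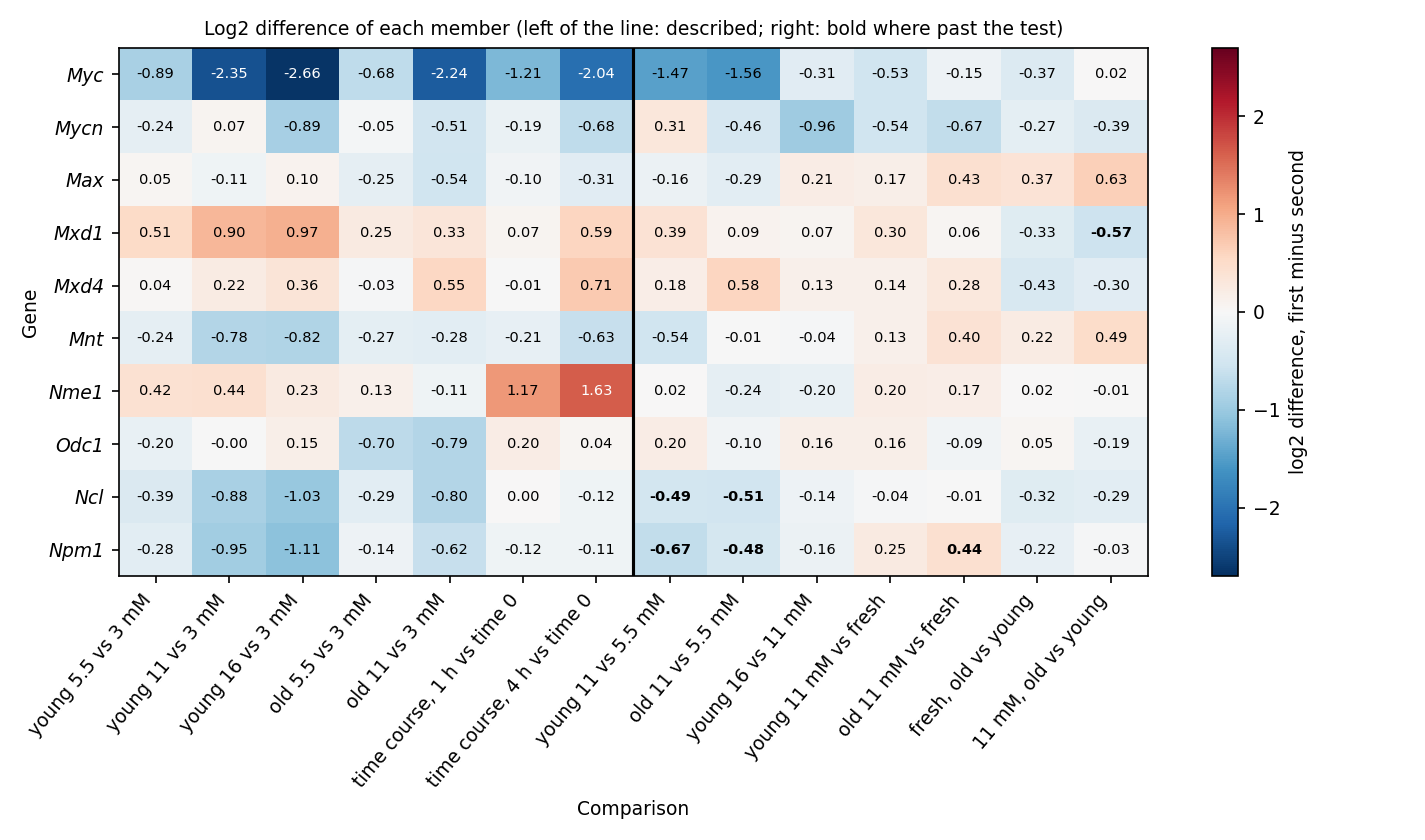
Log2 difference (first group minus second) of each member in 14 comparisons, blue where lower and red where higher. Left of the line are those used to choose the members, which are described only; right of it, bold values passed the test (Ncl and Npm1 between 5.5 and 11 mM at both ages, Mxd1 between ages at 11 mM, Npm1 in old islets against fresh), and Myc at 11 against 5.5 mM is described only.

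The wider network and its target classes were read from lists of known genes. Among 27 genes of ribosome biogenesis, which make and process rRNA, none was higher and 11 were lower past the threshold at 11 against 3 mM in young islets, 14 were lower at 16 mM and 14 in old islets at 11 mM. Of all genes, 13.1%, 14.2% and 10.6% were lower. The medians of the list were -0.44, -0.46 and -0.46, beside 0.05, 0.01 and 0.04 for all genes. Mybbp1a, a nucleolar protein that binds MYB, was 741 to 787 in young islets at 3 mM and 350 to 383 at 16 mM. The nucleolar GTPase Gnl3 was 1360 to 1372 in old islets at 3 mM and 539 to 702 at 11 mM.

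At 4 h of the time course 2 of the 27 genes were higher and 1 was lower, with a median of 0.18 beside -0.01 for all genes. Of all genes, 5.72% were higher and 5.64% lower there. Nop56, a core protein of box C/D snoRNPs, was 246 to 273 at time 0, 372 to 390 at 1 h and 485 to 514 at 4 h (log2 difference 0.91). Tsr1, a factor of small-subunit assembly, was 1467 to 1651 at time 0, 1921 to 1982 at 1 h and 2834 to 2884 at 4 h (0.87). After 2 days in young islets Nop56 was 311 to 330 at 3 mM and 246 to 267 at 16 mM.

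**Figure D5:**
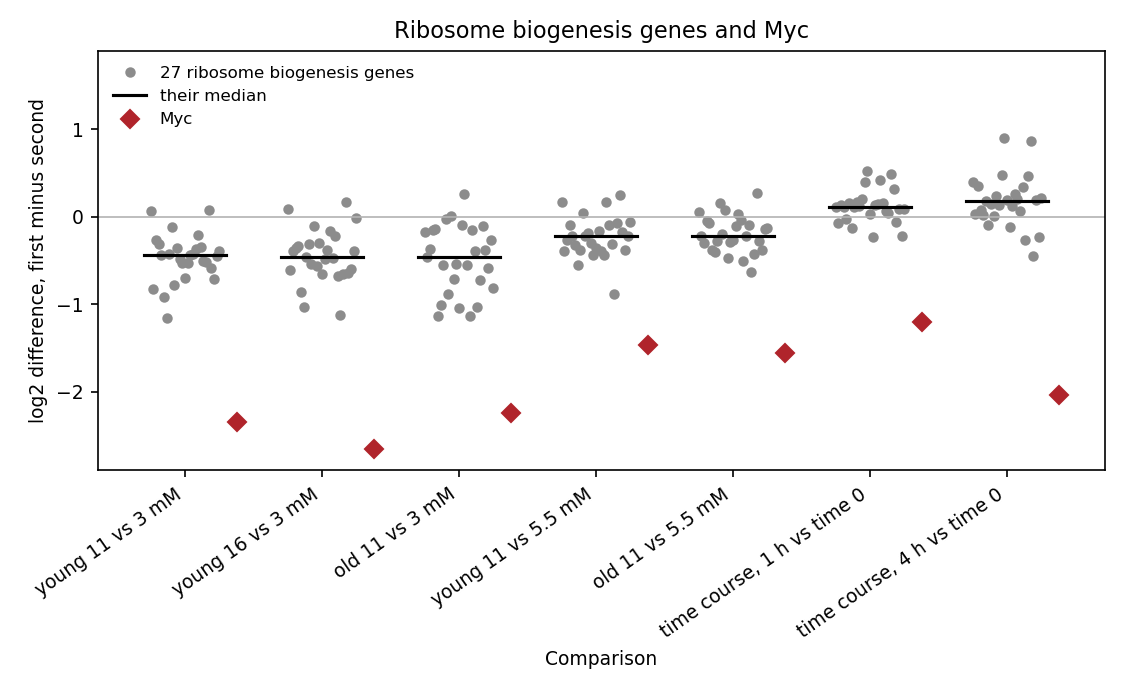
Log2 differences (first group minus second) of 27 ribosome biogenesis genes (points), their median (bar) and Myc (diamond) in 7 comparisons. The median lies at -0.44 to -0.46 at 11 or 16 against 3 mM and at 0.12 and 0.18 after 1 h and 4 h, while Myc is lower in all 7.

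Between 5.5 and 11 mM, 2 of the 27 genes fell in young islets and none in old islets (medians -0.22 and -0.21, beside 0.01 and 0.02 for all genes; 1.78% and 2.01% of all genes fell). Mybbp1a fell by 0.56 (adjusted p = 0.0163) and Nop56 by 0.44 (adjusted p = 0.0226). Both missed the threshold without replicate 1 of young islets at 5.5 mM (adjusted p = 0.197 and 0.277), without replicate 2 at 11 mM (adjusted p = 0.172 and 0.177) and without the array set (-0.33 and -0.11, adjusted p = 0.167 and 0.710), and Nop56 also without replicate 1 at 11 mM (adjusted p = 0.0688) and with the mean of its probe sets (adjusted p = 0.217).

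C1qbp, a mitochondrial matrix protein required for mitochondrial translation, fell by 0.84 at both ages (SE 0.13, adjusted p = 0.000632 in young and 0.000675 in old islets), the 1 gene of 10 tested for translation and growth at each age, where 1.78% and 2.01% of all genes fell. It kept its call without any single array of either comparison (adjusted p up to 0.0256), but in old islets not without the array set (adjusted p = 0.0920). In young islets its signals were 3007 to 3262 at 3 mM, 1663 to 1834 at 5.5 mM and 916 to 952 at 16 mM, with a mean of 970.5 at 11 mM in set B. In old islets they were 1171 to 1416 at 3 mM, 894 to 964 at 5.5 mM and 509 to 511 at 11 mM.

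Of 16 nucleotide synthesis genes tested, 2 rose between 5.5 and 11 mM in young islets. Ppat, which commits to purine synthesis, was 134 to 141 at 3 mM, 230 to 245 at 5.5 mM and 456 to 460 at 16 mM in young islets, and Cad, which starts pyrimidine synthesis, was 308 to 362, 322 to 404 and 677 to 691. Between 5.5 and 11 mM both rose in young islets (Ppat 0.99, adjusted p = 0.0227; Cad 0.74, adjusted p = 0.0294), as Cad did in old islets (0.70, adjusted p = 0.0337). Cad was the 1 of the list in old islets and none was lower at either age, where 1.46% and 2.35% of all genes rose. The list's medians were 0.02 in young and -0.03 in old islets. In young islets both missed the threshold without replicate 1 at 5.5 mM (adjusted p = 0.149 and 0.356) or replicate 2 at 11 mM (0.240 and 0.219), Ppat also without replicate 2 at 5.5 mM (0.0821) and with the mean of its probe sets (0.0900), and Cad also without replicate 1 at 11 mM (0.0732), the array set (0.763) or the trend (0.0531). In old islets Cad missed it without any 1 of the 4 arrays (adjusted p = 0.0738 to 0.279), with the mean of its probe sets (0.152), without the array set (0.426) and without the trend (0.0583).

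Around Odc1, of the 6 polyamine genes tested, Sat1, which acetylates polyamines for breakdown and export, was lower at high glucose. It was 528 to 711 at 3 mM and 173 to 176 at 16 mM in young islets, and 985 to 1091 at 3 mM and 602 to 738 at 11 mM in old islets. Azin1, which shields ornithine decarboxylase from antizyme, was higher: 788 to 844 and 1428 to 1490 in young, and 548 to 552 and 689 to 800 in old islets. At 11 against 3 mM 2 of the 6 were higher and 2 lower in young islets, and 2 higher and 1 lower in old islets, beside 13.3% and 13.1% of all genes in young and 13.9% and 10.6% in old islets. None of the 6 passed between 5.5 and 11 mM at either age in limma (medians 0.10 in young and 0.19 in old islets).

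Among 9 other network factors tested, the antagonist Mxd3 was dim, at 14 to 21 at 3 mM and 52 to 58 at 16 mM in young islets. Mlxipl, the glucose-sensing ChREBP of the related MLX branch, was 1192 to 1421 at 3 mM and 2361 to 2618 at 11 mM in old islets. None of the 9, and none of 13 genes of MYC turnover and its cofactors, passed between 5.5 and 11 mM at either age in limma. At 11 mM in old against young islets Mlxip, another glucose sensor of that branch, rose by 0.55 (SE 0.13, adjusted p = 0.00783), the 1 of the 9 where 10% of all genes rose. It missed the threshold without replicate 2 of old islets (adjusted p = 0.0687) or replicate 3 of young islets (adjusted p = 0.0918).

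Of 6 genes that MYC is known to repress, none passed at 11 against 5.5 mM at either age in limma. Against 3 mM, 2 of the 6 were lower at 11 mM at each age, beside 13.1% of all genes in young and 10.6% in old islets. The cyclin-dependent kinase inhibitor Cdkn1a averaged 888.5 at 3 mM and 490.5 at 11 mM (set B) in young islets, where Ndrg1 was the other, and 432.5 and 256.5 in old islets. There the growth-arrest gene Gadd45a was the other, at 745 to 808 against 312 to 360.

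Gadd45a rose from fresh islets to 11 mM by 1.12 in young (SE 0.25, adjusted p = 0.00912) and by 1.28 in old islets (SE 0.25, adjusted p = 0.00234). It missed the threshold in young islets without replicate 2 of the fresh islets (adjusted p = 0.0940) or replicates 3 or 4 at 11 mM (0.0556 and 0.0800), in old islets without replicate 1 of the fresh islets (0.0646), and at both ages without the array set (0.843 and 0.270). Cdkn1b, which restrains entry into S phase, was higher in old than in young islets, by 0.87 fresh (SE 0.15, adjusted p = 0.00114) and by 1.25 at 11 mM (SE 0.15, adjusted p = 1.83e-05). With the mean of its probe sets these were 0.55 (adjusted p = 0.141) and 0.58 (adjusted p = 0.0869), and fresh islets missed the threshold without the array set (adjusted p = 0.223).

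By the correlation of log2 signals over the 12 group means, the genes most like Myc were 4930453N24Rik (r = 0.979), Them4 (0.962), Ado (0.957), Lrrc45 (0.956) and Lsm14a (0.954). Over the 14 arrays of set B their correlations were 0.897, 0.930, 0.927, 0.747 and 0.871, and over the 12 of set A 0.938, 0.821, 0.939, 0.928 and 0.883. The mean signal of 4930453N24Rik was 695 in young islets at 3 mM, 489.5 at 5.5 mM and 313 at 16 mM, and 704.5, 520.5 and 404 at the 3 times of the time course. The genes most like Nme1 were Prss44 (0.872), Rbm4b (0.845), Ovca2 (0.828), Iws1 (0.819) and Gtf3c4 (0.817). Over the arrays of set A alone these correlations lay between -0.09 and 0.564, and over those of set B between 0.594 and 0.874.

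Markers of islet cell types differed between the same groups. The summed signal of all 8 beta-cell markers was 18499 to 21059 at 3 mM, 24680 to 26469 at 5.5 mM and 36494 to 40348 at 16 mM in young islets. It was 20991 to 22727, 27763 to 29310 and 37653 to 45556 at 3, 5.5 and 11 mM in old islets, in the opposite order to Myc, Ncl and Npm1. In the time course it was 17594 to 22255 at time 0 and 17345 to 22112 at 4 h, while Myc was 5.24 times lower. The acinar sum of the time course was 434 to 3778 at time 0, 41 to 2514 at 1 h and 458 to 900 at 4 h. The 4 alpha- and delta-cell markers measured of 6 summed to 12165 to 14977 at 3 mM and 17209 to 21429 at 16 mM in young islets.

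The 5 duct markers measured of 7 summed to 2381 to 2603 at 3 mM and 1924 to 2155 at 16 mM in young islets, and 2741 to 2843 at 3 mM and 2046 to 2207 at 11 mM in old islets. In young islets at 3 and 16 mM the sums were 2405 to 2442 and 1892 to 2913 for 7 mesenchymal markers, 890 to 1040 and 939 to 1349 for 7 macrophage markers, and 254 to 308 and 185 to 199 for 6 endothelial markers. Fresh islets carried more acinar signal (5 of 7 markers, 4540 to 8637 in young and 11876 to 23634 in old islets, against 328 or less at 11 mM in the same array set) and more endothelial signal (2538 to 2879, against 481 or less). At 11 mM the macrophage sum was 2995 to 3033 in old and 1599 to 2272 in young islets of the same array set. The duct sum was also higher in old islets there (2046 to 2207 against 1353 to 1362). The mesenchymal (1331 to 1411 against 3962 to 4271), alpha- and delta-cell (19503 to 20933 against 22053 to 24362) and endothelial sums (301 to 357 against 434 to 481) were lower. The beta-cell and acinar sums overlapped. The mesenchymal sum was also lower in fresh old than in fresh young islets (648 to 803 against 2246 to 3421). The part of these markers in the results was not tested.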

How the data were processed

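RNA of 26 islet samples was hybridised to 26 Affymetrix mouse arrays. Trizol was used to extract the RNA, of which 50 ng entered 2 cycles of labelling, per the labels' protocols. In the deposited table the authors give 1 linear intensity per probe set; MAS5 is named in the submitters' processing notes, and the trimmed mean (2% off each end) was 150 on every array. Detection calls were not analysed here. Precision is limited by how few arrays each group has.

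The annotation gave 1 symbol to 34945 of 45101 probe sets, several to 932 and none to 9160, and 64 were controls. Only the first kind was used. Deposited intensities were transformed here to log2(value + 16). Probe sets that exceeded the median of the array on 2 or more of the 26 arrays were kept (23047), and the brightest stood for each gene. limma 3.58.1 in R 4.3.3 fitted 12 group means and the array set (Gapdh ratio under or over 0.5), with an intensity trend (13 residual and 7.02 prior degrees of freedom), after a test on simulated data. Each of 8 tested and 8 described comparisons was adjusted over 12580 genes.

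The members and gene lists were chosen with earlier results of these data known. Genes named from a list are among the 2 with the smallest adjusted p past the threshold in a tested comparison, or the 3 with the largest differences without overlap in a described one. Also named are the 5 genes most like Myc and like Nme1, some cell type markers, and Nme2, which was chosen after its values were seen. Promoters are from RefSeq.

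Same-numbered arrays deviated together among cultured young groups (correlation of deviations 0.169 to 0.417 over 6 pairs of groups) and in the time course (0.551 to 0.630 over 3), and their replicate numbers were read as pairs; the fit has no replicate block, and blocked counts stand beside it where they differ by over 1.5 times. Among old groups the correlation was 0.0556 to 0.196 over 6 pairs of groups and between fresh groups -0.01, and these were not read as pairs. The replicate block still gave a shared term to same-numbered arrays of the cultured old groups. Same-numbered fresh arrays of both ages shared another term. Blocked counts in those groups therefore rest on a pairing that neither the labels nor these correlations show. Alternatives were offsets of 1 and 64, quantile normalization, no filter, the mean of probe sets, no array set, a replicate block, no trend, each array left out, and each probe set on its own, added after the data were seen.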

Additional observations from a re-analysis of the deposited data

How the results depend on the processing

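Each comparison rests on 2 arrays a group within 1 array set, which limits every call. Counts at 11 against 5.5 mM include Myc. Leaving out each array in turn, between 0 and 3 members passed at 11 against 5.5 mM in young and in old islets, 0 to 1 between ages at 11 mM, 0 to 2 at 11 mM against fresh in old islets, and 0 in the other tested comparisons. Without the array set 1 member passed at 11 against 5.5 mM in old islets, 2 between ages at 11 mM, 1 at 11 mM against fresh in young islets and 0 in old islets. Without the trend 1 passed at 11 against 5.5 mM in old islets and 0 against fresh in old islets, where 0 also passed after quantile normalization or without the filter. Between ages at 11 mM 2 passed with an offset of 64 and 0 with the mean of probe sets. With a replicate block, 1 member (Mxd4) passed between ages in fresh islets and 0 at 11 mM. At 11 against 5.5 mM in old islets 4 passed (Mxd4 added). The block changed no other call of a member in a tested comparison. At 5.5 against 3 mM in old islets, which is described only, it gave 1298 genes in place of 590, Myc and Odc1 (lower) among them. In the old and fresh groups the block joined same-numbered arrays that were not read as pairs. Offsets of 1 and 64 moved the Myc difference to -2.77 and -1.64 at 11 against 3 mM in young islets, -3.23 and -1.79 at 16 mM, -2.68 and -1.52 in old islets at 11 mM, and -2.40 and -1.43 at 4 h. The mean of probe sets gave Nme1 0.57 at 1 h and 0.94 at 4 h. With each array left out Myc ranged from -1.19 to -0.58 and Nme1 from 0.13 to 0.71 at 5.5 against 3 mM in young islets, from -2.47 to -2.23 and 0.15 to 0.73 at 11 mM, and from -2.86 to -2.45 and -0.06 to 0.53 at 16 mM, where Nme1 was reversed without replicate 1 at 3 mM (-0.057). They ranged from -0.86 to -0.49 and 0.06 to 0.20 at 5.5 mM and from -2.29 to -2.19 and -0.19 to -0.04 at 11 mM in old islets. In the time course they ranged from -1.61 to -0.81 and 0.73 to 1.61 at 1 h, from -2.40 to -1.68 and 1.35 to 1.92 at 4 h, and from -1.24 to -0.43 and 0.025 to 0.91 between 1 h and 4 h. Between ages at 11 mM, 2 of 10 tested genes of translation and growth were higher in old islets past the threshold, as were 10% of all genes. Eif4e was among them, with differences of 0.34 to 0.64 when each array was left out. It was reversed with the mean of probe sets (-0.091), and Mxd1 was reversed on another probe set (0.36). The causes were not tested. Counts of genes moved by over 1.5 times without the array set (869 in place of 1961 between ages at 11 mM, 266 in place of 1188 fresh, 359 in place of 699 and 828 in place of 527 against fresh in old and young islets, 120 in place of 549 and 618 in place of 408 at 11 against 5.5 mM in old and young islets), with the mean of probe sets (782 between ages in fresh islets) and with a replicate block (2121 between ages in fresh islets, 1209 at 11 against 5.5 mM in old islets, 26 in place of 3 in the test of culture by age). That test gave 5 with an offset of 64, 1 after quantile normalization and 0 without the array set, and the step from 11 to 16 mM gave 0 to 3 genes in place of 1 under the alternatives other than the block and a left-out array. With an array left out the counts ranged from 82 to 484 and from 99 to 342 at 11 against 5.5 mM in young and old islets, 0 to 57 from 11 to 16 mM, 414 to 668 and 729 to 1945 between ages fresh and at 11 mM, 287 to 535 and 306 to 671 against fresh in young and old islets, and 0 to 7 in the test of culture by age.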
